A study of Mus musculus with 2 samples.

Results

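A small group of the sorted liver cells carried a hepatocyte transcriptome together with the transcripts of hepatic stellate cells (HSCs), the pericytes of the liver sinusoid. These profiles were picked by a value, the summed unique molecular identifiers (UMIs, one tag per captured probe ligation product) of Dcn, Lrat, Reln, Col1a1, Col3a1 and Colec11 divided by all UMIs of the cell. Cells with 5000 to 10000 detected genes, at most 100000 UMIs and at most 5% mitochondrial UMIs were ranked by it over both libraries together, and the 500 highest were taken. They were 500 of 21046 cells in that gene window and of 39559 cells in all. They are called stellate-high profiles below, and the remaining 20546 cells of the window are called the other cells.

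The cells came from livers of male heterozygous p16-Tom mice (p16-CreERT2 crossed with R26-CAG-LSL-tdTomato-WPRE, C57BL/6 background) that had received CCl4 for 4 weeks and tamoxifen. In these mice the recombinase is driven from the p16 locus, so tamoxifen marks cells that transcribe p16 at that time with the red reporter tdTomato for good, and both libraries carry the same alleles and treatment. Liver pieces were fixed before they were dissociated, and Hoechst+ MitoBrilliant 646+ cells were sorted as Tom- (labelled p16low hepatocytes) or Tom+ (labelled p16high hepatocytes) for probe-based single-cell RNA sequencing. There was 1 library per fraction, and neither the age nor the number of mice behind it was given in the sources used here, so every interval below covers counting error only and no test between conditions was possible.

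HSCs lie between hepatocytes and sinusoidal endothelium, store vitamin A as retinyl esters and, after repeated injury such as CCl4, are known to turn into collagen-producing myofibroblast-like cells. Their long processes run along the hepatocyte surface. Hepatocytes change their gene expression with their place in the lobule. Zone 1 borders the portal vein, where blood enters, and its cells express amino acid breakdown genes such as Sds and Hal, whereas zone 3 surrounds the central vein and its cells express Glul and cytochrome P450 genes such as Cyp2e1.

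The 6 genes of the rule stand for both sides of HSC biology. Dcn (decorin, a collagen-binding proteoglycan; ENSMUSG00000019929, chr10:97479609-97518143, plus strand, mm10), Col1a1 (ENSMUSG00000001506, chr11:94936224-94953042, plus strand) and Col3a1 (ENSMUSG00000026043, chr1:45311538-45349706, plus strand) encode matrix proteins. Lrat (ENSMUSG00000028003, chr3:82892579-82903973, minus strand) makes retinyl esters, Reln (ENSMUSG00000042453, chr5:21884454-22344702, minus strand) encodes the secreted glycoprotein reelin, and Colec11 (ENSMUSG00000036655, chr12:28594173-28623377, minus strand) encodes a collectin of innate immunity.

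Since the value chose the cells, it is given as a description only. The highest profile stood at 11085 CPM (UMIs scaled to the usual common total per cell) and came from the Tom- library. The 100th stood at 1710 CPM, the 200th at 1252, the 300th at 1028 and the 400th at 891. The values ran without a step through the limit: the last profile taken held 75 rule UMIs among 97625 (768.25 CPM) and the first one left out held 33 among 42998 (767.48 CPM). Stellate-high profiles held 14 to 443 rule UMIs with a median of 50, against a median of 1 in the other cells, of which 28.9% held none.

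**Figure D1:**
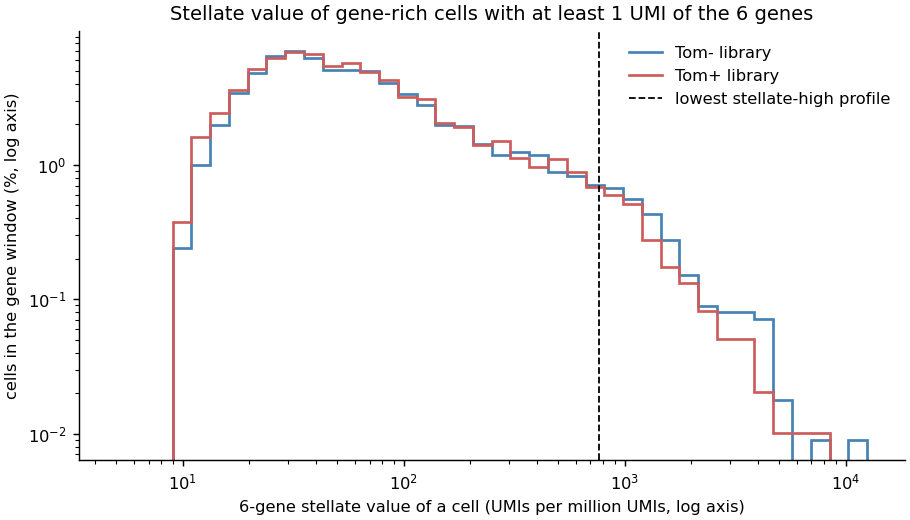
Share of each library's cells in the gene window (vertical, percent, log axis) by stellate value (horizontal, CPM, log axis), for cells with at least 1 UMI of the 6 genes; the dashed line marks the lowest stellate-high profile. Both libraries form a single peak near the other cells' medians of 30.0 and 31.5 CPM with a continuous tail past the line.

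Since the sum of the rule genes chose the profiles, the number of rule genes detected is a description as well. All 6 were detected in 283 stellate-high profiles and 5 in another 169, so that 452 (90.4%) had at least 5, against 5.71% of the other cells. Since each gene has its own probes, UMI numbers do not rank the genes by transcript level, but they show which genes the value rested on: Col3a1 gave 36.1% of the rule UMIs and Dcn 22.6%. Col3a1 gave the most UMIs in 280 profiles, Dcn in 121, Col1a1 in 43, Colec11 in 19, Reln in 2 and Lrat in none. Col3a1 was present in all 500, Dcn in 495 and Lrat in 316.

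Single profiles varied widely in each rule gene, and over similar ranges in both libraries. Col3a1 ran from 62.0 to 5687 CPM in Tom- stellate-high profiles (median 402) and from 67.7 to 4188 in Tom+ ones (398). Dcn ran from 0 to 1784 CPM (median 286) and from 0 to 1298 (284), and Lrat from 0 to 476 (median 23.2) and from 0 to 264 (23.7). Summed over cells, Col1a1 stood at 258 against 7.26 CPM in the other cells of the Tom- library and at 236 against 7.13 in the Tom+ library, and Dcn at 306 against 19.6 and 306 against 20.3. Reln was at 133 against 8.67 and 124 against 10.9, and Colec11 at 165 against 12.5 and 136 against 11.3.

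Beyond the rule genes, the data were asked what else distinguished the stellate-high profiles. This contrast is the one the rule used, so its counts are descriptive. Genes were compared where they reached 10 CPM in one of the sums and 20 UMIs over both. A gene well under 10 CPM in the other cells was thus compared only through the stellate-high sum. It could then only count as higher, and the list counts below share this limit. In the Tom- library 805 of 8636 genes were at least 2-fold higher in stellate-high profiles (9.32%) and 4 lower (0.0463%), and in the Tom+ library 689 of 8643 were higher (7.97%) and 14 lower (0.162%). In both libraries together 659 of 8465 were higher (7.78%) and 4 lower (0.0473%). Of the 659, 54 belonged to a list of stellate, fibroblast, muscle or matrix genes, rule genes included. The counts of 805 and 689 fell to 376 and 511 without the 154 profiles, described below, also rich in endothelial or immune genes.

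Hepatocyte genes stayed near their level in the other cells. Summed over cells, Alb (albumin) stood at 106240 CPM in Tom- stellate-high profiles against 120059 in the other Tom- cells, and at 101273 against 110783 in the Tom+ library. The stellate-high profile with the least Alb still held 22293 CPM. Of the 15 hepatocyte genes listed, none differed 2-fold in either library, with Ttr (transthyretin) at 22428 against 20835 CPM (Tom-) and 23968 against 23582 (Tom+) and Hnf4a, the hepatocyte transcription factor, at 523 against 640 and 522 against 601. Alb was not used to choose the profiles, whereas Dcn, Col1a1 and Col3a1, which had UMIs in 495, 465 and 500 of them, were. A barcode gives the summed RNA of all that was captured with it, so RNA of joined cells and RNA within a single cell cannot be told apart here.

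Stellate-high profiles were not deeper than the others. Total UMIs are the denominator of the value that chose them and were capped by the rule, so their depth is a description. Their median was 36037 UMIs in the Tom- library against 40749 in the other cells, and 44277 against 44845 in the Tom+ library. With every cell thinned to 10000 UMIs they held more genes, with a median of 3380 against 3112 (Tom-) and 3406 against 3167 (Tom+). Mitochondrial shares were similar, with medians of 1.25% against 1.23% and 1.47% against 1.48%. The libraries shared 503 barcodes, 12 of them carried by a stellate-high profile of one library, and none was stellate-high in both.

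Stellate-high profiles were somewhat more frequent in the Tom- library. They made up 293 of 11220 Tom- cells in the window (2.61%, exact Clopper-Pearson 95% interval 2.32 to 2.92) and 207 of 9826 Tom+ cells (2.11%, 1.83 to 2.41), a Tom- over Tom+ ratio of 1.24 (1.03 to 1.49). Tom+ cells were thus 41.4% of the stellate-high profiles (37.0 to 45.9) and 46.7% of the window. Of the stellate-high profiles, 154 were also among the 500 cells richest in endothelial genes or the 500 richest in macrophage and immune genes. Of these 154, 111 were Tom- and 43 Tom+, and without them the ratio was 0.97. They were taken out of the profiles but such cells were kept in the window counts, so the cut itself lowered the Tom- share more. Whether the direction depended on such profiles was not tested. The libraries also differed in depth and zone, and at an equal mix of lobule positions, judged by zone genes, the ratio was 1.68 (2.94% against 1.75%), while at an equal mix of depths it was 1.20. With the value taken from cells thinned to 10000 UMIs, the ratio was 1.44 and Tom+ cells were 37.8% of the profiles.

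Depth moved with membership differently in each library, which is a description too, since total UMIs are part of the value. In the Tom- library 6.16% of cells with over 10000 and up to 25000 UMIs were stellate-high, falling to 3.0%, 2.10% and 1.31% in the classes ending at 40000, 60000 and 100000 UMIs. In the Tom+ library the same classes gave 3.94%, 1.68%, 2.31% and 2.00%.

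Most HSC identity genes outside the rule that could be compared were high. Genes low in the other cells were compared only through the stellate-high sums, so the counts and medians are a description. Of the list of 22, 20 reached the level for comparison in the Tom- library and 17 of them were 2-fold higher, and in the Tom+ library 16 of 19 were, with median log2 ratios of 3.76 and 3.79 against 0.10 and 0.08 over all genes. Hgf, the growth factor HSCs supply to hepatocytes, stood at 131 CPM against 9.21 (log2 3.83, 3.74 to 3.91) in the Tom- library and 120 against 8.18 (3.88, 3.78 to 3.97) in the Tom+ library. In single Tom- stellate-high profiles Hgf ranged from 0 to 908 CPM with a median of 121, and in Tom+ ones from 0 to 996 with a median of 111. At 10000 UMIs per cell 67.2% and 62.8% of stellate-high profiles still held an Hgf UMI, against 7.78% and 6.50% of the other cells.

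The transcription factors of the HSC lineage followed. Tcf21 stood at 59.6 against 2.34 CPM (Tom-) and 58.7 against 2.38 (Tom+), Lhx2, known to hold HSCs in the quiescent state, at 23.1 against 1.19 and 27.6 against 1.27, and Hand2 at 99.0 against 5.40 and 90.8 against 5.63. The PDGF receptor Pdgfrb, the main mitogen receptor of HSCs, was at 38.8 against 1.60 and 36.4 against 1.64 CPM. Des (desmin, an intermediate filament) was at 13.5 against 1.22 and 12.9 against 1.07, and Gfap, a quiescent HSC marker, was near 0 at 1.33 and 1.59 CPM. Among those that stayed under 2-fold in both libraries, Cxcl12 (a chemokine; 441 against 271 and 446 against 265 CPM) and Steap4 (a metalloreductase; 91.8 against 53.1 and 103 against 62.2) already stood above 50 CPM in the other cells.

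Of the activation list of 30 genes, 16 of the 18 compared were 2-fold higher in the Tom- library and 15 of 17 in the Tom+ library, with medians of 3.90 and 3.83. These counts and medians leave out genes under 10 CPM in both sums, among them Acta2, Timp1, Lox, Loxl1 and Cthrc1, so they are a description. Collagen genes were among its highest ratios, with Col6a3, a chain of the pericellular collagen VI, at 82.6 against 3.33 CPM and 83.9 against 3.58. Col1a2, the partner chain of Col1a1 and not part of the rule, stood at 532 against 22.1 CPM (log2 4.59, 4.54 to 4.63) and 459 against 21.3 (4.43, 4.38 to 4.48), and all but 1 of the 500 profiles held a UMI of it. Col5a1, a chain that starts collagen fibrils, was at 98.7 against 4.20 and 73.3 against 3.32 CPM. Sparc, a collagen-binding matrix glycoprotein, was at 432 against 68.2 and 364 against 49.5. Ctgf, a matrix-bound growth factor, stood at 273 against 26.4 and 197 against 20.1, and Mmp2, a gelatinase, at 24.6 against 1.27 and 27.0 against 1.25.

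Some classical myofibroblast genes were scarce in these profiles. Scarce here means a low level in CPM, not a low ratio to the other cells. Other activation genes reached the level for comparison, with Postn at log2 4.51 (Tom-) and 4.38 (Tom+) over the other cells and Loxl2 at 3.62 and 3.60. Acta2 (smooth muscle actin) stood at 2.47 CPM in Tom- and 1.68 in Tom+ stellate-high profiles and was seen in 14 of 293 and 6 of 207 of them. It was scarcer still in the other cells, at 0.126 and 0.0988 CPM. A single profile held 8 of the 28 Tom- UMIs and another 12 of the 17 Tom+ UMIs. Timp1, an inhibitor of matrix metalloproteinases, was at 0.707 and 0.495 CPM, Lox, which cross-links collagen, at 1.33 and 2.38, Loxl1 at 3.09 and 2.97, and Cthrc1 was not found in any stellate-high profile. The contractile genes Tagln (37.8 against 5.38 and 22.9 against 4.63 CPM) and Myl9 (12.1 against 1.19 and 7.53 against 0.906) were also higher than in the other cells. Fn1 (fibronectin), which hepatocytes also make, was at 3593 against 3880 and 3626 against 3887 CPM, and Pdgfa at 15.5 against 12.4 and 20.2 against 16.0, so both stayed under 2-fold. Levels of different genes depend on their probes here, so a low level of one gene cannot be read against a high level of another.

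**Figure D2:**
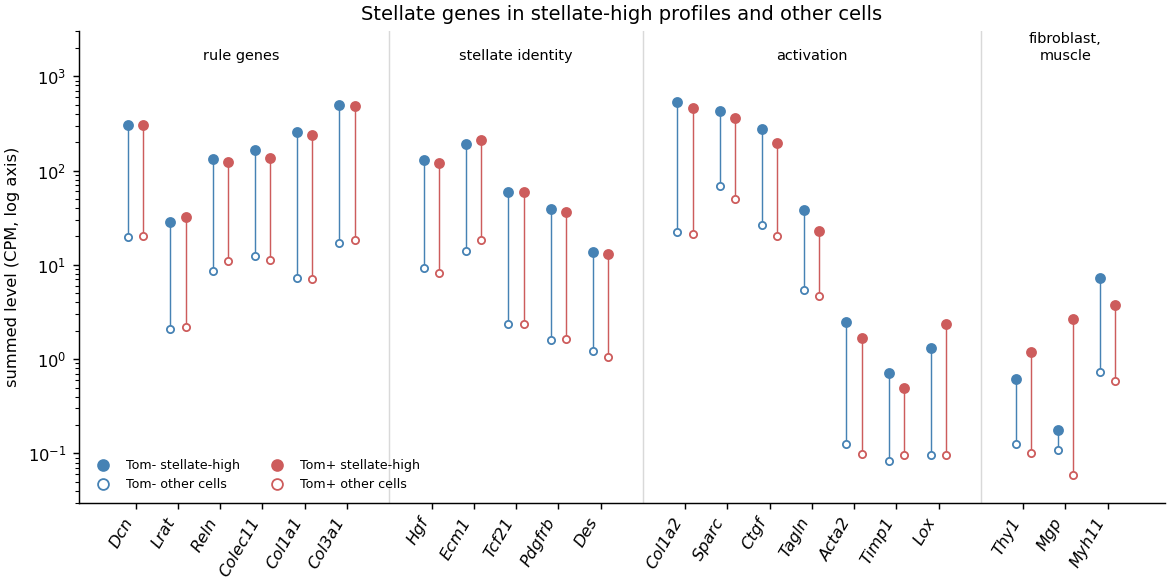
Summed level (vertical, CPM, log axis) of rule genes, HSC identity genes, activation genes and fibroblast or muscle genes in stellate-high profiles (filled) and the other cells (open) of the Tom- (blue) and Tom+ (red) libraries; thin lines join the pair of each library. The genes plotted have their filled points above the open ones, and Acta2, Timp1, Lox, Thy1 and Mgp stay below 3 CPM in the stellate-high profiles of both libraries.

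Basement membrane and pericellular matrix genes were also raised, as 8 of 9 compared genes in the Tom- library and 8 of 10 in the Tom+ library passed 2-fold. Col4a1, which HSCs and endothelium both make, stood at 561 against 79.5 and 463 against 69.8 CPM, and Col14a1 at 118 against 6.87 and 110 against 7.21. Col18a1, made by hepatocytes, was at 1081 against 1283 and 980 against 1116 CPM. Among small leucine-rich proteoglycans other than Dcn, Bgn (biglycan) was at 289 against 25.9 and 284 against 26.2, Lum (lumican) at 13.5 against 0.586 and 13.8 against 0.662, and Prelp at 77.7 against 7.25 and 65.3 against 6.10.

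Of 22 growth factor and receptor genes of the HSC niche, 16 were compared and 10 of them passed 2-fold in each library. Those included the BMP family ligands Bmp5 (72.9 against 3.69 and 64.8 against 3.49 CPM), Bmp10 (29.3 against 1.08 and 19.1 against 0.849) and Gdf2 (BMP9; 70.8 against 3.82 and 59.5 against 3.66), the receptor Pdgfra (16.0 against 0.479 and 17.9 against 0.748) and Tgfb1 (29.1 against 9.18 and 24.4 against 6.86). The receptors Tgfbr1 (34.1 against 22.7 and 34.5 against 24.2) and Tgfbr2 (40.3 against 22.6 and 46.6 against 29.5) stayed under 2-fold. Met, the hepatocyte receptor of Hgf, was at 57.7 against 62.5 and 51.0 against 64.0 CPM.

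Of the interleukin 6 cytokine family and its receptors, Osmr, the oncostatin M receptor, was the only one of 4 compared that passed 2-fold, at 13.5 against 3.18 and 13.1 against 2.18 CPM. The shared signalling chain Il6st stood at 143 against 85.4 and 149 against 100.2 CPM. Lifr, the receptor of leukaemia inhibitory factor, was at 1045 against 1153 and 1010 against 1043. The ligands were scarce in stellate-high profiles, with Ctf1 at 5.39 and 5.95 CPM, Clcf1 at 3.18 and 3.67, and Lif at 0.353 and 0.297. Of vitamin A genes other than Lrat, 1 of 11 (Tom-) and 1 of 12 (Tom+) passed 2-fold, near the 9.32% and 7.97% over all genes compared. They were Lpl (lipoprotein lipase) at 67.8 against 32.7 CPM in Tom- and Cyp26b1, which degrades retinoic acid, at 11.4 against 2.24 in Tom+. List medians were 0.06 in each library, against 0.10 and 0.08 over all genes. The Tom- ratio of Lpl passed 2-fold in 6 of 11 alternatives.

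Summed levels of portal fibroblast and smooth muscle lists were higher than in the other cells. Several of their defining markers stayed near 1 CPM or below. Among these, Thy1, Clec3b and Fbln2 were still above the other cells in both libraries. The portal fibroblast list summed to 81.9 against 13.1 CPM and 105 against 13.4, a ratio of 6.27 and 7.87, and the smooth muscle list to 124 against 15.1 and 93.3 against 13.4, a ratio of 8.24 and 6.96. Of 14 portal fibroblast genes, 1 reached the level for comparison in the Tom- library and 2 in the Tom+ library, Gsn (gelsolin; 52.9 against 3.80 and 63.1 against 4.06 CPM) and, in Tom+, Eln (elastin; 11.3 against 0.744). Gsn alone held most of the summed level, and without it the list stood at 29.0 against 9.26 CPM and 42.2 against 9.33, a ratio of 3.13 and 4.52. Thy1 stood at 0.618 against 0.126 and 1.19 against 0.101 CPM, Clec3b at 0.618 against 0.0367 and 0.0991 against 0.0315, and Fbln2 at 0.265 against 0.0733 and 0.396 against 0.0526. Gli1 had 1 UMI in the stellate-high profiles of each library. Mgp and Pi16 reached 2.68 and 5.95 CPM in the Tom+ library through few cells, since a single profile held 21 of 27 Mgp UMIs and another 39 of 60 Pi16 UMIs. Of 8 smooth muscle genes, Cnn1 and Pln were found in no stellate-high profile and Myh11 (smooth muscle myosin) stood at 7.33 against 0.731 and 3.77 against 0.593 CPM. The 4 that were compared, Des, Tagln, Smtn (49.1 against 6.30 and 37.8 against 6.01 CPM) and Itga8 (16.1 against 1.42 and 16.1 against 1.11), were all 2-fold higher in each library. All 4 were under 10 CPM in the other cells and were compared only through the stellate-high sums. Cholangiocyte markers were below 1 CPM, with Krt19 at 0.883 against 0.230 and 0.0991 against 0.341 CPM and Epcam at 0.707 against 0.214 and 0 against 0.238.

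Genes outside the rule were then ranked by the smaller of their ratios in the libraries. The first was Nr1h5, a nuclear receptor of the FXR family, at 28.0 against 0.804 CPM (log2 5.12, 4.90 to 5.34) and 30.0 against 0.774 (5.28, 5.05 to 5.50). It was followed by Spon1 (spondin 1, a matrix protein; 12.5 against 0.369 and 13.7 against 0.385 CPM) and Adamtsl2, a fibrillin-binding matrix protein (36.8 against 1.00 and 39.6 against 1.36). The remaining 12 of the 15 were Sema6c, Rem1, Tcf21, Cacna2d1, Rbms3, Pdgfra, Antxr1, Col6a3, Adamts5, Bmp10, Pdgfrb and Col5a1, with log2 ratios between 4.47 and 5.06. The 5 lowest were Myo15b and the zone 1 genes Cyp2f2, Sds, Etnppl and Sdsl.

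The stellate-high profiles were also set beside cells with fewer genes. Among cells with at least 2000 but under 5000 genes, the 500 richest in the same value (354 Tom- and 146 Tom+) held the rule genes at a sum of 3545 and 3894 CPM, and still 101194 and 97126 CPM of Alb. The amount by which stellate-high profiles exceeded the other cells was a median of 37.3% (Tom-) and 32.6% (Tom+) of the same excess in these low-gene cells over the rule genes, 35.0% and 28.9% over the identity genes and 35.8% and 30.3% over the activation genes. Single rule genes ran from 32.3% to 40.7% and from 30.0% to 34.3%. Genes outside the rule spread more widely, from 26.8% to 42.4% and from 22.6% to 48.0% in the identity list and from 28.0% to 47.1% and from 21.3% to 597% (Pdgfa) in the activation list. All 659 genes that were 2-fold higher in both libraries were 2-fold higher in the low-gene cells than in the other cells too, as were 1144 of the 8465 genes compared in both (13.5%). The low-gene cells were picked by the same 6 genes, so this is a description.

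The ranking is by the value that chose the profiles, so levels along it are a description. From the first 100 stellate-high profiles to the last 100, the summed identity list went from 2662 to 1524 CPM (517 in the other cells), Col1a2 from 1162 to 263 (21.7), Hgf from 179 to 107 (8.70) and Pdgfrb from 59.9 to 26.8 (1.62). Alb went the other way, from 97209 to 109476 CPM (115495). Acta2 went from 4.36 to 0.403 CPM. The number of Tom+ profiles per 100 was 41, 33, 44, 44 and 45.

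**Figure D3:**
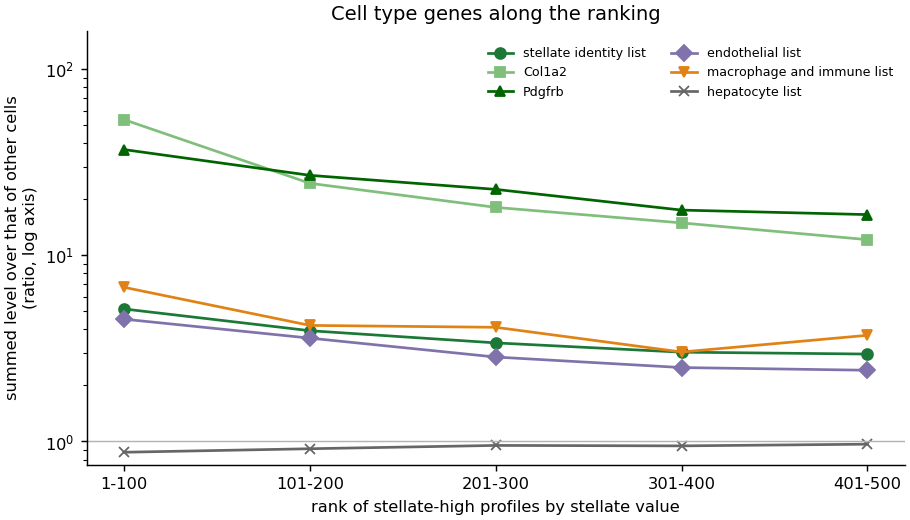
Summed level in stellate-high profiles over that in the other cells (vertical, ratio, log axis) by rank of the profiles in steps of 100 (horizontal), both libraries together. The HSC and endothelial lists fall from left to right, the immune list falls and then rises in the last step, and the hepatocyte list stays just below 1; Col1a2 goes from 1162 to 263 CPM against 21.7 in the other cells.

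The collagen share of a profile is made from the same UMIs that chose it, a median of 50 per profile, and counting error was not separated from its spread, so the split by it is a description. Col1a1 and Col3a1 made up a median of 47.8% of the rule UMIs in Tom- and 50.8% in Tom+ stellate-high profiles, with extremes of 8.33% and 100%. In each library, the profiles above the median collagen share held more Col1a2 (703 against 357 CPM in Tom-, 578 against 340 in Tom+) and more Adamtsl2, a gene of pericentral HSCs (50.9 against 22.2 and 51.6 against 27.9). The profiles below it held more Hgf (160 against 102 and 153 against 86.3), more Ecm1, a secreted protein that restrains TGF-beta activation (240 against 149 and 291 against 135), and more Ngfr, a gene of periportal HSCs (25.3 against 13.5 and 20.3 against 7.74). Igfbp3, an insulin-like growth factor binding protein, was also at 92.9 against 50.0 and 71.8 against 38.1 CPM below and above it, and Rgs5, a pericyte gene, at 38.9 against 28.2 and 44.1 against 22.02. These genes were chosen after their values were seen, and a low collagen share means more of the other rule genes by construction. Tagln (33.2 against 42.7 CPM in Tom-, 24.8 against 21.1 in Tom+) and Thbs1 (18.0 against 16.0 and 9.12 against 12.0) differed in opposite directions. Acta2, Lox and Timp1 were higher above the median share in both libraries, on few UMIs. These were 19 against 9 and 16 against 1 for Acta2, and 12 against 3 and 19 against 5 for Lox. For Timp1 they were 6 against 2 and 4 against 1. A single profile held most Tom+ Acta2 UMIs. Genes of other cell types moved with the split: above the median share the endothelial list summed to 825 against 985 CPM and 623 against 892, and the macrophage and immune list to 2329 against 2604 and 1359 against 1993, and their part in it was not tested. The pericentral share of the hepatocyte part, defined next, had medians of 43.4% and 41.9% above and below it in the Tom- library and 61.4% and 62.2% in the Tom+ library.

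The hepatocyte part of the stellate-high profiles was shifted away from zone 1. For each cell a pericentral share was taken as zone 3 UMIs over zone 1 plus zone 3 UMIs, with 18 listed genes per zone and Alb left out. Its median was 42.5% (38.6 to 46.3) in Tom- stellate-high profiles against 21.5% (20.8 to 22.2) in the other Tom- cells, and 61.4% (57.2 to 66.6) against 52.1% (51.1 to 53.0) in the Tom+ library. The size of the shift depended on the gene window: with cells of 2000 to 10000 genes it was 8.65 points in the Tom- library and 0.44 points in the Tom+ library, in place of 21.0 and 9.37. Single profiles spanned nearly the whole range, from 6.21% to 87.8% and from 7.70% to 89.0%.

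Each library was split into 5 equal classes by that share. From the most portal to the most central class, stellate-high profiles made up 0.535%, 1.52%, 2.50%, 4.06% and 4.46% of Tom- cells. In the Tom+ library they made up 0.509%, 1.53%, 3.16%, 3.10% and 2.24%. They were thus rarest in the most portal class of both libraries, at 12 of 2244 and 10 of 1964 cells, and in the Tom+ library the most central class held fewer than the middle one, with overlapping intervals (1.63 to 2.99 against 2.43 to 4.03). With classes set over both libraries together the highest shares were in class 4, at 5.35% (Tom-) and 3.28% (Tom+).

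**Figure D4:**
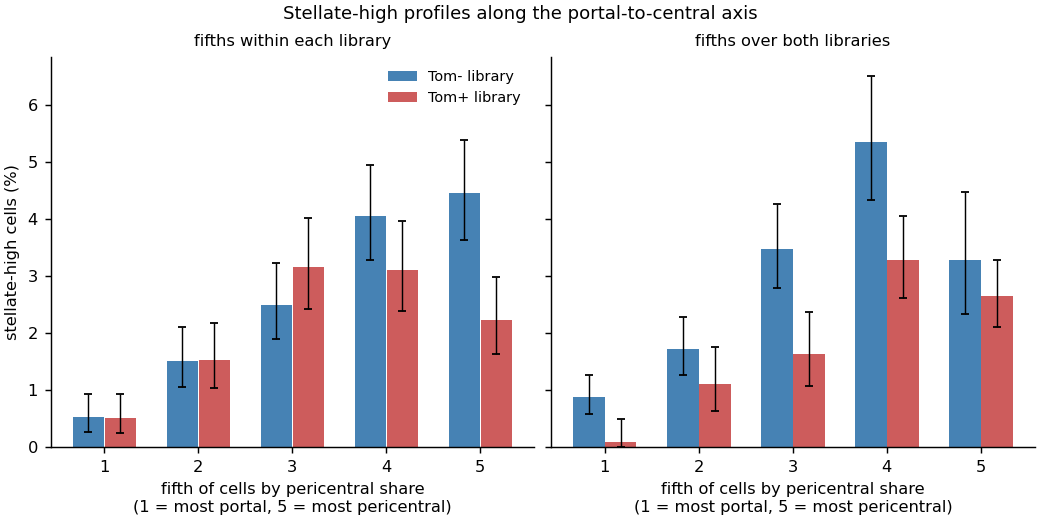
Percentage of cells that were stellate-high (vertical) by class of pericentral share (horizontal, 1 most portal to 5 most central), with 5 equal classes set within each library (left) or over both libraries (right); bars are the Tom- (blue) and Tom+ (red) libraries and error bars are exact 95% binomial intervals, counting error only. The most portal class is the lowest in each library, at 0.535% and 0.509% on the left.

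Zone 1 genes were lower in stellate-high profiles, by a list median of -0.70 (Tom-) and -0.79 (Tom+), and 3 of 18 and 7 of 18 were at least 2-fold lower. Sds (serine dehydratase) stood at 655 against 1317 CPM and 307 against 846, and Cyp2f2 (a cytochrome P450) at 79.9 against 174 and 41.6 against 122. Hal (histidine ammonia-lyase) was at 295 against 520 and 137 against 330 CPM. By contrast Pigr and Ctsc changed by no more than 0.13 on the log2 scale in size in either library.

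Zone 3 genes had list medians of 0.37 and 0.13, beside 0.10 and 0.08 over all genes compared, and none of the 18 passed 2-fold. Cyp1a2 stood at 395 against 278 CPM and 642 against 524, Cyp2e1 at 1495 against 1201 and 2286 against 2071, and Oat (ornithine aminotransferase) at 59.9 against 43.3 and 176 against 145. Genes of the innermost hepatocyte layer were not compared as a set and varied singly. Glul (glutamine synthetase) was at 42.5 against 33.4 CPM in the Tom- library but 103 against 110 in the Tom+ library. Slc1a2, a glutamate transporter, was lower in both, at 16.1 against 26.4 and 55.2 against 77.7. In the Tom- library Glul, Lgr5 and Axin2 had log2 ratios of 0.35, 0.43 and 0.36, near the list median. Axin2, Lgr5 and Rnf43, targets of Wnt signalling, were at 49.8 against 38.9, 12.8 against 9.56 and 33.3 against 32.9 CPM in the Tom- library and at 79.8 against 74.6, 24.2 against 20.2 and 56.4 against 55.0 in the Tom+ library.

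HSC genes with a known lobule position were high on both sides, with 4 of 4 portal-side and 2 of 4 central-side genes past 2-fold in each library. Those past 2-fold were under 10 CPM in the other cells and were compared only through the stellate-high sums, so these counts were nearly fixed in advance. The portal-side genes Ngfr (19.3 against 1.39 and 14.3 against 1.20 CPM), Igfbp3 (71.6 against 3.72 and 54.6 against 3.63) and Il34 (29.9 against 1.83 and 19.4 against 1.37) and the central-side genes Adamtsl2 and Rspo3, a Wnt enhancer (24.2 against 1.18 and 27.0 against 1.18), were all more than 10-fold higher. Adamtsl2 was detected in 51.5% of Tom- and 65.7% of Tom+ stellate-high profiles and Ngfr in 36.2% and 38.6%. These shares were not taken at equal depth, and Tom+ profiles were deeper, with a median of 44277 against 36037 UMIs. The genes have different probes, so their shares cannot be set against each other.

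Genes of other sinusoidal cells moved with the HSC genes. All 14 endothelial genes were 2-fold higher in each library (medians 1.32 and 1.55), as were all 14 macrophage and immune genes compared of 16 listed (2.14 and 2.02), while Itgam and Ccr2 stayed under 10 CPM. Summed endothelial levels per cell ran from 0 to 5985 CPM in Tom- stellate-high profiles (median 542, against 133 in the other cells) and from 0 to 5435 in Tom+ ones (482 against 92.0). Summed macrophage and immune levels ran from 0 to 34200 CPM (median 1323, against 216) and from 34.5 to 29534 (1004 against 171). Stab2, the endothelial hyaluronan receptor, was at 89.8 against 35.5 and 71.4 against 24.7 CPM, Clec4f, a Kupffer cell lectin, at 297 against 57.9 and 163 against 45.9, and Ptprc, the leukocyte marker CD45, at 26.7 against 6.14 and 21.3 against 4.37.

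Some profiles were rich in RNA of several of these cell types. Of the 500 stellate-high profiles, 80 (16.0% of each list) were also among the 500 window cells richest in endothelial genes and 102 (20.4% of each) among the 500 richest in macrophage and immune genes, where 2.38% of all window cells are stellate-high. Either applied to 154 (30.8%), 111 of them Tom- and 43 Tom+, and 28 were in all 3 groups. Without these 154, Stab2 stood at log2 0.34 (Tom-) and 1.08 (Tom+) over the other cells and Clec4f at 0.91 and 1.10. Stab2 and Clec4f are in the lists that chose the 154, and the other cells were not cut, so lower ratios were fixed in advance. Col1a2 stood at 4.52 and 4.31 and Hgf at 3.59 and 3.68, and neither gene was in those lists. The identity list medians went from 3.76 and 3.79 to 3.59 and 3.60, and the activation list medians from 3.90 and 3.83 to 3.59 and 3.53. The HSC genes were thus somewhat lower but still high without these profiles. The part of endothelial and immune RNA in the differences was not tested.

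The summed level of the cell cycle genes was 49.6 CPM in Tom- stellate-high profiles against 19.9 in the other Tom- cells, and 37.8 against 16.2 CPM in the Tom+ library. Mki67 stood at 9.45 against 2.97 CPM and 5.95 against 2.07, in 42 of 293 and 26 of 207 stellate-high profiles, and Top2a at 9.54 against 2.73 and 6.04 against 1.91. Of the 9 cell cycle genes measured, Cdk1 (10.2 against 5.18 CPM) was the one that reached 10 CPM, and it did so in the Tom- library.

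The last comparison set the Tom+ stellate-high profiles against the Tom- ones. The reporter checked the sort: tdTomato stood at 736 CPM in Tom+ and 83.4 in Tom- stellate-high profiles (log2 3.14, 3.04 to 3.24), and at 740 and 63.8 in the other cells. Cdkn2a, the gene of p16, was near 0, at 0.991 CPM (10 UMIs) and 1.24 CPM (14 UMIs), against 0.326 and 0.320 in the other cells. Apart from the reporter, 13 genes were at least 2-fold higher in Tom+ stellate-high profiles (14 with it, 0.16% of 8774) and 15 lower (0.171%), against 0.278% and 0.0379% in the other cells.

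HSC genes stood at similar levels in both. The rule genes differed by log2 -0.28 (Colec11) to 0.17 (Lrat), and the list medians were -0.08 for identity and -0.32 for activation, with no gene of either list past 2-fold. Col1a1 (236 against 258 CPM), Col3a1 (482 against 494) and Dcn (306 in each) changed sign between alternative selections of cells. A set of HSC genes was lower in Tom+ stellate-high profiles under all 11 alternatives: Tagln at log2 -0.72 (-0.96 to -0.49), Thbs1 (a TGF-beta activating matrix protein) at -0.69 (-1.05 to -0.34), Bmp10 at -0.62 (-0.88 to -0.36), Il34 at -0.62 (-0.88 to -0.36) and Sod3, an extracellular superoxide dismutase, at -0.55 (-0.63 to -0.47). Lhx2 was higher, at 0.26 (0.01 to 0.51).

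Lobule zone genes differed between the libraries, while the list of 15 hepatocyte genes had a median log2 ratio of 0.02 with 0 of 15 past 2-fold. Zone 1 genes were lower in Tom+ stellate-high profiles (list median -0.63, 4 of 18 past 2-fold) and zone 3 genes higher (0.71, 4 of 18). Slc1a2 had the largest ratio of all genes after the reporter, at 55.2 against 16.1 CPM (log2 1.78, 1.54 to 2.03), followed by Dbp (a circadian transcription factor; 29.9 against 9.63), Oat (176 against 59.9), Ces2c (a carboxylesterase; 34.7 against 12.3) and Scara5 (a ferritin receptor; 13.0 against 5.04). The other cells gave 1.56 for Slc1a2, 1.34 for Dbp and 1.74 for Oat.

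The lowest ratios included haemoglobin. Hba-a2 stood at 0.495 CPM in Tom+ and 14.8 in Tom- stellate-high profiles, but a single Tom- profile held 116 of the 168 UMIs, and for Hbb-bs (0.991 against 12.6 CPM) a single one held 90 of 143. Obp2a, a lipocalin, was at 7.13 against 42.7 CPM, Hsd17b6, a steroid dehydrogenase, at 12.3 against 32.2, and Ptgds, a prostaglandin synthase, at 95.9 against 249. The Obp2a ratio ran from log2 -2.67 to -0.71 over the alternatives and passed 2-fold in 10 of 11. The macrophage and immune list had a median of -0.58, with 1 of 14 genes past 2-fold and single genes from -1.22 (Marco) to 0.20 (Cd74, an antigen presentation chaperone). Lyz2 (lysozyme) stood at -0.05, and the ratios of Lyz2, Cd74, Ptprc, C1qb, C1qc, Vsig4, Adgre1 and Csf1r changed sign in at least 1 alternative. The lowest were the macrophage receptor Marco at 34.0 against 79.1 CPM (log2 -1.22, -1.40 to -1.04) and the Kupffer cell gene Clec4f at 163 against 297. The Clec4f ratio was -0.86, and it was -0.15 without the profiles rich in endothelial or immune genes. Clec4f is in a list used for that cut, which took out 111 Tom- and 43 Tom+ profiles, so this was not a test of the difference.

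**Figure D5:**
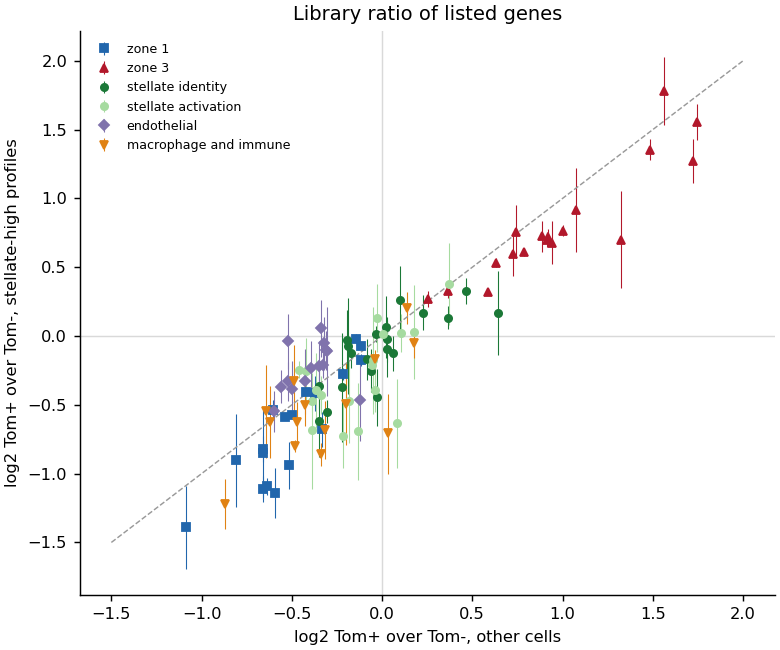
Log2 ratio of Tom+ over Tom- for genes of 6 lists in the other cells (horizontal) and in stellate-high profiles (vertical); bars are exact 95% intervals for the stellate-high ratio, counting error only, and the dashed line marks equality. HSC identity and activation genes sit between -0.72 and 0.38 on the vertical axis, with zone 1 genes at or below -0.02 and zone 3 genes at or above 0.27.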

How the data were processed

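Fixed liver cells were profiled with the Chromium Fixed RNA kit (Flex; mouse probe set plus custom tdTomato probes) in 1 Tom- and 1 Tom+ library. The authors deposited UMI counts that were not normalized, 1 number for each probed gene in each barcode, made with Cell Ranger 7.2.0 on mm10. Probes read short target sites, so levels were compared within a gene. The libraries held 23220 and 16339 barcodes and 681279005 and 715333889 UMIs. Doublets were not removed and no doublet caller was run, since stellate RNA in hepatocyte profiles is the property under study.

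Counts were summed over the cells of a group and library, and log2 ratios of CPM were given with exact conditional 95% intervals, which cover counting error only. Shares have Clopper-Pearson 95% intervals. Counts of genes past 2-fold used a pseudocount of 0.5 UMIs, a minimum of 10 CPM in either sum and 20 UMIs over both. Shares of cells with a UMI were also taken after thinning each cell to 10000 UMIs. The rule for named genes was the 15 highest and 5 lowest ratios outside the rule genes by the smaller of the libraries' sizes, 5 each way between libraries, and any gene of the lists. The cells, lists and comparisons were chosen with earlier results of these data known. Upp2 and Ccnb1 of the lists were not used here, and Ccn2 and Tf were read under Ctgf and Trf. 1 listed gene is not reported here. Gene positions came from GENCODE M21. Ratios were tested on simulated counts. Python 3.11.15, numpy 2.4.6, scipy 1.17.1 and pandas 2.3.3 were used. Alternatives changed the number of profiles, the gene and depth windows, the value, the scaling and the minimum level.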

Additional observations from a re-analysis of the deposited data

Results flagged for a closer look

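Glul (glutamine synthetase) moved in opposite directions in the libraries, at log2 0.35 in Tom- and -0.10 in Tom+ stellate-high profiles against the other cells of the same library. Igf1 (insulin-like growth factor 1) did so too, at 0.042 and -0.17. With 1 library per fraction these differences were not tested, and the sign of the Igf1 ratio in the Tom- library held in 7 of 11 alternatives.

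The matrices also hold a feature for the L1Md_A repeat, which no comparison above used. It stood at 3212 CPM in Tom+ and 2832 CPM in Tom- stellate-high profiles, a log2 ratio of 0.18 (0.16 to 0.20), against 0.23 in the other cells. A separate feature for p16 had 10 and 8 UMIs in Tom+ and Tom- stellate-high profiles.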

How the results depend on the processing

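Over the 15 alternatives, 112 values of the comparisons kept their direction and stayed within 1.5 times or the spread, 37 moved and 1 turned. The value that turned was the Tom- over Tom+ ratio of shares, at 0.97 without profiles rich in endothelial or immune RNA (Tom+ 47.4% of the rest). Such cells stayed in the window counts under that setting, so the turn was not a test of the direction. That setting also gave 376 higher genes in the Tom- library and 7 lower in Tom+ than in Tom- profiles. An equal mix of lobule classes gave a ratio of 1.68. With 250 profiles, 40 genes were higher and 51 lower in Tom+ than in Tom- profiles, and with 1000 the Tom- library had 1 lower gene and an activation median of 3.30. With 2000 to 10000 genes per cell, 1830 genes were higher and 71 lower in the Tom- library and 1696 and 52 in the Tom+ library, identity medians were 4.73 and 4.73, activation medians 5.04 and 5.09, the pericentral differences 8.65 and 0.44 points, the genes between libraries 73 higher and 46 lower, and the Tom+ percentage 31.4. The number of lower genes in the Tom- library was 1 with a thinned value, 7 with 250 profiles per library, 2 with 25000 to 60000 UMIs and 8 with median-of-ratios scaling. With 25000 to 60000 UMIs 22 genes were higher in Tom+ than in Tom- profiles, and with the mean over cells 23 were lower. A minimum of 50 CPM left 139 and 98 higher genes, 9 lower in the Tom+ library and 7 lower between libraries. Without a CPM minimum these were 2956 and 2724 higher, 113 and 140 lower, and 86 and 117 between libraries. The cause of these shifts was not tested.

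Hba-a2 in the Tom- library turned from 1.76 to -0.29 with 250 profiles, -0.31 with 2000 to 10000 genes and -0.56 without profiles rich in endothelial or immune RNA, and Hbb-bs from 1.86 to -0.36 and -0.52 under the latter settings. Between libraries Hba-a2 turned from -4.77 to 0.019 without the collagens in the value. Of 224 gene ratios past 2-fold, 221 kept their sign under all alternatives run for them, and of all 546 gene ratios 420 did. Most alternatives kept the profiles or picked them again by the rule genes. A kept sign of HSC genes against the other cells was thus nearly fixed in advance. Of the gene values under the alternatives, 3750 stayed within the counting interval, 2250 moved and 6 turned. The equal mixes of lobule and depth classes and leaving out the 5 highest profiles were chosen after seeing the data. No paired analysis was possible because there was only 1 library on each side. Depth limits single-profile values, since a profile held a median of 50 rule UMIs.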
